A study of Mus musculus with 18 samples.

Results

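The genes described here are 8 chemokine genes that gut epithelial cells are known to make: Ccl25, Ccl28, Ccl20, Ccl6, Cxcl1, Cxcl10, Cxcl16 and Cx3cl1. They were taken by symbol from a raw count table of 43346 genes and a normalised table of 24814 genes, all 8 were found in both, and all 8 were among the 26717 genes with a mean count above 0 that entered the tests. RNA was measured in 18 libraries of EPCAM+ cells sorted from crypts of untreated C57BL/6 mice labelled Lgr5_eGFP_Iris_creERT2, aged 8 to 20 weeks by the labels. Cells came from the small intestine (SI) or the large intestine (LI) and were gated as Lgr5-GFP high, mid or low, which stand for the crypt centre, the border of the stem cell zone and the region above it (row >3), with 3 libraries in each of the 6 groups. Every group carried the knock-in allele, in which the Lgr5 locus drives GFP and an inducible Cre, so no group lacks the transgene. GFP brightness, not a position seen in tissue, placed a cell in its group, and GFP in this line is known to be patchy between crypts. The comparisons asked how expression differed between the intestinal sites at each level, between levels within a site, and whether the change with level differed between the sites.

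Chemokines are small proteins that guide leukocytes by binding G protein-coupled receptors on them. CCL25, bound by CCR9, and CCL28, bound by CCR10, are known as steady-state mucosal chemokines that draw T cells and IgA-secreting cells to the gut wall. CXCL1, which attracts neutrophils through CXCR2, CXCL10, an interferon-induced ligand of CXCR3, and CCL20, the ligand of CCR6, are known as inducible members. CXCL16 and CX3CL1 are made as membrane proteins on a mucin stalk that bind CXCR6 and CX3CR1 and can be cut free by ADAM10 and ADAM17. CCL6 is a rodent CC chemokine that binds CCR1.

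The stretches upstream of 4 genes are shown because these genes carry the contrast between the sites: Cxcl1 and Cxcl10 were higher in LI at some levels, Ccl25 was higher in SI, and Ccl28, the other steady-state chemokine, is shown beside them. Each line gives the 200 bases before the first annotated exon base near a RefSeq start (GRCm38.p6, mm10 coordinates), read 5′ to 3′ on the gene's strand. Capitals mark matches, merged where they overlap, to 7 motifs searched on both strands: the NF-kB consensus of 10 bases, the interferon-stimulated element (GAAA, any 2 bases, GAAA), the AP-1 site TGANTCA, the GATA site AGATAA, the CDX site TTTATG, the TCF/LEF site CTTTGA and the TATA box TATAAA.
Cxcl1, chr5:90891041-90891240, plus strand: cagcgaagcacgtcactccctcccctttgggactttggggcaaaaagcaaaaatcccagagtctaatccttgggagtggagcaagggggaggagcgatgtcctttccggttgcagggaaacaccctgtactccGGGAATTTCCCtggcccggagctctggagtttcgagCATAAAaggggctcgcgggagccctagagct
Cxcl10, chr5:92348890-92349089, minus strand: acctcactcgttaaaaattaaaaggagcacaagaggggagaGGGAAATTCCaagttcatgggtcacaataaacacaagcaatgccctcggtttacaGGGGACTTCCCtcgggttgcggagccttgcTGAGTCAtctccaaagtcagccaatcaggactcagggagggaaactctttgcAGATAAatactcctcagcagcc
Ccl25, chr8:4349388-4349587, plus strand, the downstream of 2 RefSeq starts: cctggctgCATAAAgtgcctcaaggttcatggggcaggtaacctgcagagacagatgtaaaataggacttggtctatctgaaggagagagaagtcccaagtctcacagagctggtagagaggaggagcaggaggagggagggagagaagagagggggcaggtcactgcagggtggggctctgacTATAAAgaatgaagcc
Ccl28, chr13:119623619-119623818, plus strand: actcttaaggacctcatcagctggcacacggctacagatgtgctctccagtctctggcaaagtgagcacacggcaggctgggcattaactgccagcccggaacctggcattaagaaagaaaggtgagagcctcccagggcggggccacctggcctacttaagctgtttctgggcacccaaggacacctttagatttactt

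RefSeq windows of 300 bases (250 before to 50 after a start) were found for 7 of the 8 genes, Ccl25 with 2 starts, which gave 8 windows. The NF-kB consensus occurred in the windows of Cxcl1, Cxcl10 and Ccl20, 3 of the 8, and in 8.46% of all 32851 promoter windows. In Cxcl10 it began 159, 104 and 103 bases before the start, the last pair overlapping, and in Cxcl1 it began 71 and 70 bases before, overlapping matches on opposite strands. The interferon-stimulated element occurred in the Cxcl10 window alone, 213 bases before the start and so outside the stretch shown, against 3.44% of all windows. TGANTCA lay in the windows of Cxcl10 and Ccl28 (7.81% of all windows), in Ccl28 after the start and outside the stretch shown. AGATAA lay in Cxcl10 (11.2%), TTTATG on the minus strand in Cxcl1 and the downstream Ccl25 start (11.9%), and TATAAA in the downstream Ccl25 start and in Cx3cl1 (13.6%). The upstream Ccl25 start held CTTTGA, as did 16% of all windows. A match describes the letters only.

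Library totals ran from 8312093 to 31940965 counts with a median of 21934851, and the lowest total was in the SI border group. Epithelial markers were high in all 18 libraries (summed level of 6 markers 3073 to 8104 CPM, which is counts scaled to a common library total). Of 12 immune markers the summed level ran from 3.60 to 77.7 CPM, most of it Itgam and Ptprc, while Cd3e, Cd3g, Cd4, Cd8a and Adgre1 stayed below 0.5 CPM in every library. The 3 SI replicate 3 libraries stood apart in genes that mark intestinal position. Car1, a carbonic anhydrase of the large intestine, was at 82.1 to 1939 CPM in them, against 0 to 10.4 CPM in the other 6 SI libraries and 123.3 to 1348 CPM in LI. The small intestinal factor Gata4 was at 6.44 to 7.42 CPM in these 3 libraries, against 6.52 to 14.7 CPM in the other SI libraries and at most 0.058 CPM in LI. Results of the 8 genes are therefore also given without the SI replicate 3 libraries where that changes a call, which was not done for other genes. In the fits without them more genes passed the test: 10.9%, 8.1% and 12.2% for SI over LI in centre, border and row >3, 17.1% and 1.9% for row >3 over centre in SI and LI, and 3.27% for the difference between these.

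Per length of exon, the 8 genes spanned a wide range of levels. Averaged over 18 libraries, Ccl6 was highest at 101 CPM per kb, followed by Ccl25 at 35.8, Ccl28 at 13.9 and Cx3cl1 at 8.64 CPM per kb. Cxcl16 and Cxcl1 averaged 1.06 and 1.03, Cxcl10 0.542 and Ccl20 0.269 CPM per kb. The means hide the site: Ccl25 made up 49.6% of the 8 genes' summed level per length in SI centre but 11.4% in LI centre, while Ccl28 made up 10.2% and 21.4%. The share of Ccl6 ranged from 35.8% in SI centre to 69.6% in SI row >3.

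**Figure D1:**
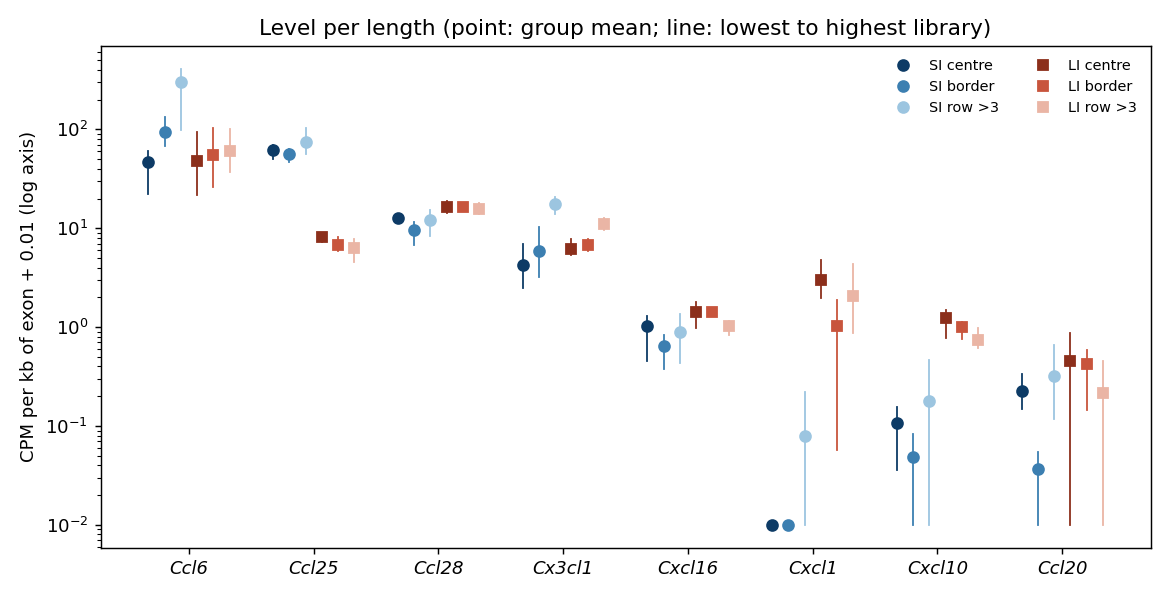
Level per length of the 8 chemokine genes in 6 groups, in CPM per kb of exon plus 0.01 on a log axis. Points are means of 3 libraries, circles for SI and squares for LI, and lines run from the lowest to the highest library. Ccl25 group means sit at 57.0 to 73.8 in SI and 6.38 to 8.23 in LI, and Cxcl1 sits at the axis floor in SI centre and border.

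Between the sites, 3 of the 8 genes passed the test in centre (Ccl25, Cxcl1 and Cxcl10), against 1.99% of all genes tested. In border 2 passed (Ccl25 and Cxcl10), against 1.75%, and in row >3 2 passed (Ccl25 and Cxcl1), against 4.09%. Ccl25 was higher in SI each time and Cxcl1 and Cxcl10 were higher in LI. The test throughout was edgeR's quasi-likelihood test over all genes with Benjamini-Hochberg adjustment, called at an adjusted p under 0.05, and SI over LI values below are log2 fold changes ± SE. The p-values measure the spread between these libraries, since the labels do not say which came from the same mouse. In sorted bulk samples, fewer cells making a transcript and less transcript per cell cannot be told apart.

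**Figure D2:**
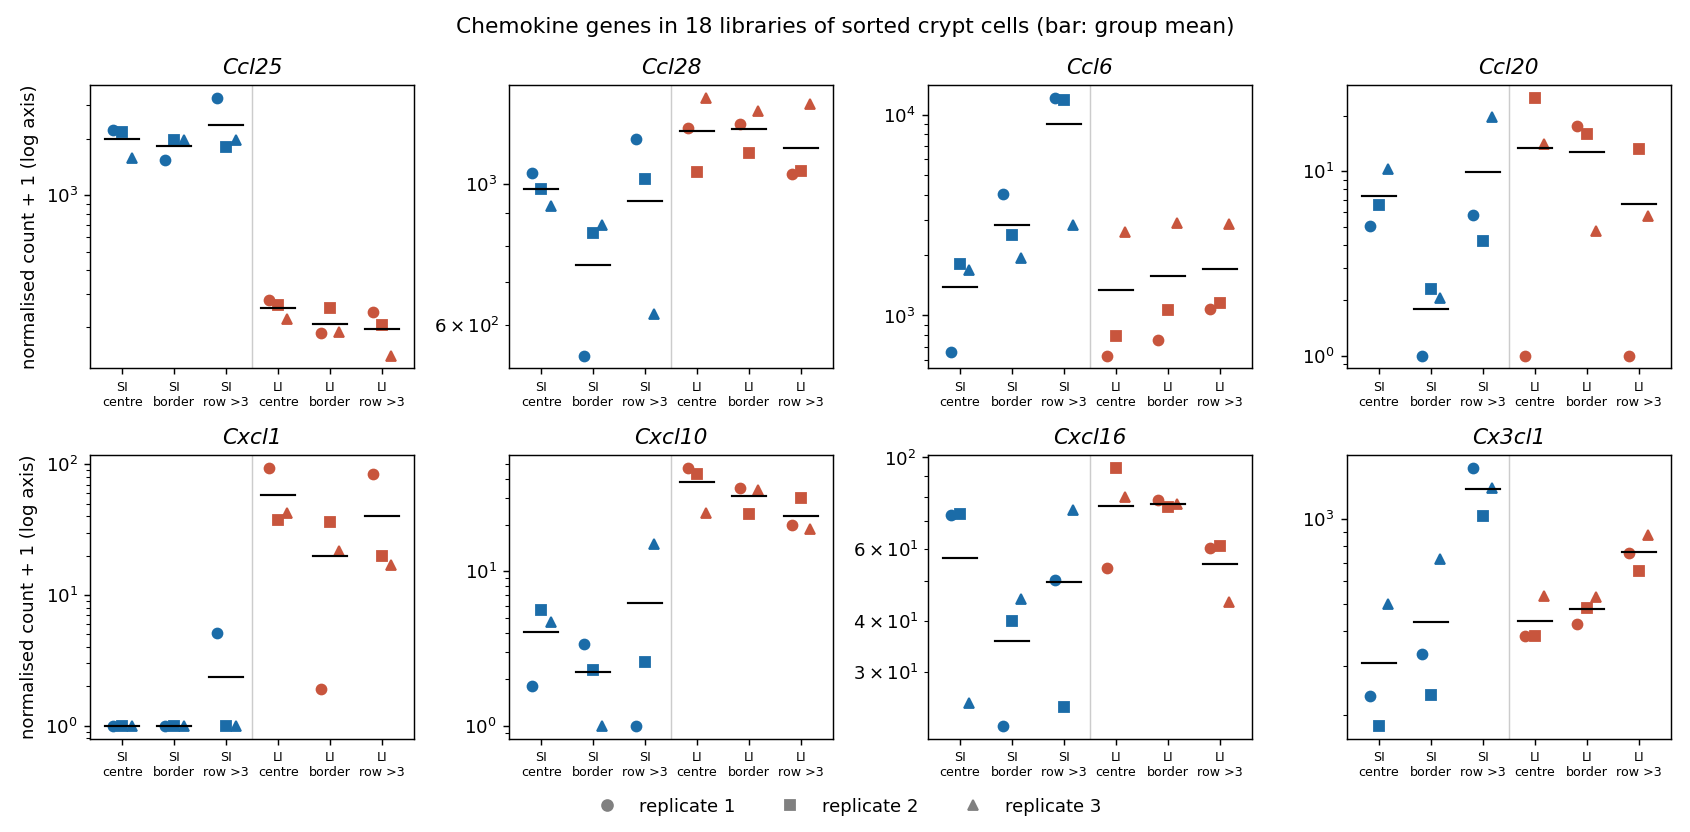
Normalised counts plus 1 of the 8 genes in each library on log axes, SI in blue and LI in red, with circles, squares and triangles for replicates 1, 2 and 3 and bars for group means. Ccl25 separates the sites with no overlap, Cxcl1 is at 0 counts in 8 libraries, all SI, and Cx3cl1 is highest in SI row >3.

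Ccl25 (ENSMUSG00000023235, chr8:4325210-4360020, plus strand), the CCR9 ligand of the small intestine, had the firmest site difference. Its normalised counts in replicates 1, 2 and 3 were 2234, 2171 and 1569 in SI centre, 1547, 1958 and 1969 in SI border, and 3291, 1809 and 1954 in SI row >3. In LI they were 276, 262 and 220 in centre, 185, 251 and 187 in border, and 240, 205 and 141 in row >3. The lowest SI library was several times above the highest LI library, and every LI library still held at least 149 counts. SI over LI was 2.92 ± 0.24 in centre (adjusted p = 3.7e-07), 3.08 ± 0.25 in border (adjusted p = 2.4e-07) and 3.53 ± 0.25 in row >3 (adjusted p = 2.2e-08), or 7.58-, 8.49- and 11.6-fold. All 16 alternative settings at each level kept the call, with adjusted p between 1.85e-39 and 4.59e-05. The SI replicate 3 libraries, high in Car1, had Ccl25 at the level of the other SI libraries, and without them SI over LI was 3.11 in centre, 3.06 in border and 3.70 in row >3. In order of level, the SI groups were row >3 (2352 ± 817, SD, n = 3), centre (1991 ± 367) and border (1825 ± 241), followed by LI centre (253 ± 29.4), LI border (208 ± 37.4) and LI row >3 (195 ± 50.7). Neighbours within a site overlapped, and no level comparison within a site passed the test. Paneth cell markers moved with the site too: 5 of 6 were higher in SI at each level, with a summed level of 230 to 9075 CPM in SI and 0 to 12.5 CPM in LI, and 1, 4 and 4 of 7 absorptive markers were higher in SI in centre, border and row >3. Of all genes tested, 1.99%, 1.75% and 4.09% passed at these levels. The part of the Paneth and absorptive markers in the Ccl25 difference was not tested. The first annotated bases of Ccl25 overlap Elavl1 on the other strand, which reached a group mean of 91.4 CPM, and the strand setting of the counting is not known.

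Ccl28 (ENSMUSG00000074715, chr13:119623819-119654359, plus strand), the CCR10 ligand, varied little by comparison. Its normalised counts were 1041, 981 and 922 in SI centre, 536, 836 and 861 in SI border, and 1178, 1017 and 623 in SI row >3. In LI they were 1224, 1042 and 1366 in centre, 1242, 1118 and 1301 in border, and 1036, 1046 and 1335 in row >3. SI border lay below every LI border library, at -0.76 ± 0.22 (adjusted p = 0.075). With the replicate number as a block this comparison gave -0.76 and an adjusted p of 0.048, with 4.27% of all genes called, and over all alternatives the adjusted p ran from 0.0071 to 0.34. In centre the groups did not overlap either, at -0.36 ± 0.21 (adjusted p = 0.48), and in row >3 they did, at -0.33 ± 0.21 (adjusted p = 0.52). LI border (1220 ± 93.5, SD, n = 3), LI centre (1211 ± 162) and LI row >3 (1139 ± 170) came first in order, then SI centre (981 ± 59.5), SI row >3 (940 ± 286) and SI border (744 ± 181). The LI groups overlapped each other, and no level comparison within a site passed the test.

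Cxcl1 (ENSMUSG00000029380, chr5:90891241-90893115, plus strand), the neutrophil attractant whose upstream stretch holds the overlapping NF-kB matches, was found almost only in LI. Not 1 count fell on it in the 6 libraries of SI centre and SI border, and SI row >3 had 6, 0 and 0 counts. LI centre had 79, 50 and 51 counts, LI border 1, 28 and 28, and LI row >3 91, 25 and 17. In normalised counts LI centre was at 57.0 ± 31.2, LI border at 18.9 ± 17.1 and LI row >3 at 39.3 ± 37.8 (SD, n = 3). Against the level that 3 counts over the SI group would give, LI was at least 59.1-fold higher in centre (44.0- to 70.9-fold without any 1 LI library) and at least 12.6-fold higher in border (8.52- to 18.7-fold). The test called the centre difference (adjusted p = 0.0097, alternatives 4.1e-05 to 0.055), which was lost without SI centre replicate 1. The border difference was not called (adjusted p = 0.20, alternatives 0.0076 to 0.48), although only LI border replicate 1, with its single count, came near the SI libraries. In row >3 SI over LI was -4.43 ± 1.17 (adjusted p = 0.034, alternatives 0.0087 to 0.17), and the call was lost when LI row >3 replicate 1 (-3.31, adjusted p = 0.17) or any 1 SI row >3 library was left out, or the LI replicate 3 libraries together. All 6 SI counts came from replicate 1, and without it the SI group was at 0 (fitted value -8.35, which is no bound, adjusted p = 0.16). The SI replicate 3 libraries, which were high in Car1, had 0 counts of Cxcl1. Within LI, border lay below centre in every library at -1.60 ± 0.74 (unadjusted p = 0.043, adjusted p = 1.0). That value moved with single libraries: it was -1.01 without LI border replicate 1 and -2.22 without LI border replicate 2.

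Cxcl10 (ENSMUSG00000034855, chr5:92346638-92348889, minus strand), the interferon-induced CXCR3 ligand with NF-kB, interferon-element and AP-1 letters upstream, showed the same order of sites. SI centre had 1, 5 and 4 counts, SI border 1, 1 and 0, and SI row >3 0, 2 and 9. LI centre had 39, 57 and 28 counts, LI border 37, 18 and 44, and LI row >3 21, 38 and 19. At each level every LI library was above every SI library in normalised counts, the closest being SI row >3 replicate 3 at 14 and LI row >3 replicate 3 at 17.9. SI over LI was -3.62 ± 0.82 in centre (adjusted p = 0.016, alternatives 0.0020 to 0.13). In border, where SI held 2 counts in all, LI was 32.8-fold higher with a 95% exact binomial counting interval of 8.85 to 275 (adjusted p = 0.032, alternatives 0.0049 to 0.17). The fitted log2 value in border, -4.90, ran from -5.48 to -4.16 with 1 border library left out. In row >3 SI over LI was -2.73 ± 0.87 and was not called (adjusted p = 0.077, alternatives 0.0035 to 0.40). The value moved with single SI row >3 libraries: it was -4.76 without replicate 3 (adjusted p = 0.0066) and -1.92 without replicate 1 (adjusted p = 0.40). Without all SI replicate 3 libraries it was -4.74 (adjusted p = 0.0035). Calls at the low counts of Cxcl10 were not firm, since leaving out any 1 border library ended the border call, and the centre call was lost without SI centre replicate 1, SI centre replicate 2 or LI centre replicate 2. Cxcl10 lies within the span of Art3 on the other strand, which had a group mean of at most 0.112 CPM.

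**Figure D3:**
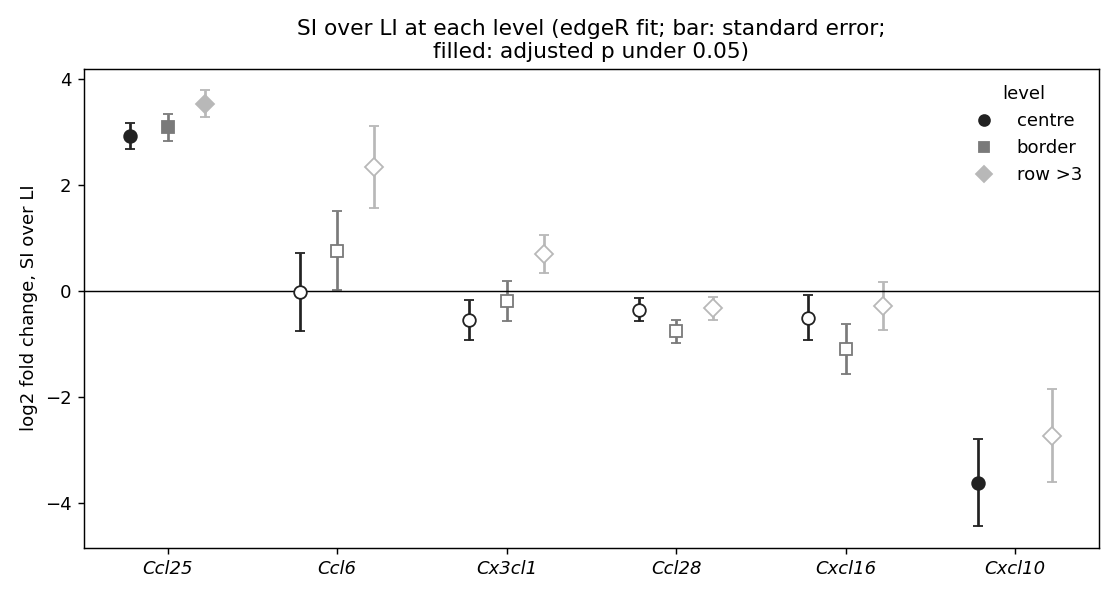
Log2 fold change of SI over LI at each level from the edgeR fit, with SE as bars, circles for centre, squares for border and diamonds for row >3. Filled symbols passed an adjusted p under 0.05. Cxcl1, Ccl20 and the border value of Cxcl10 are left out because of their low counts. Ccl25 lies at 2.92 to 3.53 and Cxcl10 at -3.62 in centre and -2.73 in row >3.

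Ccl20 (ENSMUSG00000026166, chr1:83116766-83119167, plus strand), the CCR6 ligand of follicle-associated epithelium, was near the limit of detection. It had 21 counts over SI centre, 2 over SI border, 23 over SI row >3, 49 over LI centre, 35 over LI border and 21 over LI row >3, and was at 0 in 3 libraries. LI border held 18, 12 and 5 counts against 0, 1 and 1 in SI border, an 11.6-fold ratio with a counting interval of 2.98 to 99.6, which the test did not call (adjusted p = 0.33, alternatives 0.15 to 0.54). LI centre itself ran from 0 to 33 counts between replicates. No comparison of Ccl20 passed the test.

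Cxcl16 (ENSMUSG00000018920, chr11:70453983-70459984, minus strand), the membrane-anchored CXCR6 ligand, was low but present in every library, at 21.3 to 93.3 normalised counts. SI border libraries had 21.3, 38.9 and 44.2 normalised counts and LI border libraries 78.0, 74.9 and 75.9, with no overlap, at -1.10 ± 0.47 (unadjusted p = 0.030, adjusted p = 0.28, alternatives 0.14 to 0.61). SI centre had 71.3, 71.8 and 24.2, SI row >3 49.2, 23.7 and 73.4, LI centre 52.9, 93.3 and 79.3, and LI row >3 59.2, 60.0 and 43.4, all of which overlapped between the sites. Its first exon region overlaps Zmynd15 on the other strand, at a group mean of at most 0.940 CPM.

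Within SI, 2 of the 8 genes passed the test between row >3 and centre, Cx3cl1 and Ccl6, both higher in row >3, against 13.2% of all genes, or 22.8% with the replicate block. None of the 8 passed between row >3 and centre in LI (0.0187% of all genes), between border and centre in SI (0.0112%) or LI (0%), or for the difference between the sites of either change (0% and 0%). At an unadjusted p under 0.05 there was 1 gene in row >3 over centre in LI, 0 in border over centre in SI, 1 in border over centre in LI, and 0 and 2 in the differences for border and row >3, where 1859, 2399, 368, 708 and 1800 of the 26717 genes passed that threshold. DESeq2 called 0 of the 8 in each of these 5 comparisons, and 82, 209, 0, 2 and 151 of all genes in the same order. Same-numbered libraries deviated together within each site, so the fit with the replicate number as a block is also given where it changes a call. With that block, border over centre gave 620 calls among the 26717 genes in SI and 0 in LI, with none of the 8 among them. The few calls between border and centre in SI without the block therefore do not show that these groups were alike. These comparisons share the centre libraries of each site.

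Cx3cl1 (ENSMUSG00000031778, chr8:94772009-94782427, plus strand), the membrane-bound ligand of CX3CR1 on mononuclear phagocytes, was higher in SI row >3 than in SI centre. Its normalised counts were 233, 182 and 499 in SI centre, 328, 235 and 718 in SI border, and 1523, 1028 and 1288 in SI row >3. In LI they were 382, 380 and 531 in centre, 422, 480 and 529 in border, and 758, 650 and 877 in row >3. All row >3 libraries lay above all centre libraries of their site, and border overlapped centre at both. SI row >3 over centre was 2.07 ± 0.38 (4.20-fold, adjusted p = 0.0016), called under all 16 alternatives with adjusted p from 1.5e-07 to 0.014. The same change in LI was 0.82 ± 0.37 (unadjusted p = 0.042, adjusted p = 0.69), and with the replicate block it was 0.83 with an adjusted p of 0.037, where 2.59% of all genes were called. Without the SI replicate 3 libraries the LI change was 0.81 ± 0.20 (adjusted p = 0.036), in a fit that shares 1 estimate of the spread over all groups. Same-numbered SI libraries changed 6.50-, 5.61- and 2.58-fold and LI libraries 1.98-, 1.71- and 1.65-fold, so every SI change lay above every LI change. The difference between these changes was 1.25 ± 0.53 (unadjusted p = 0.029, adjusted p = 0.63). With the block it was 1.39 ± 0.30 (adjusted p = 0.021, with 2.32% of all genes called), and without the SI replicate 3 libraries it was 1.81 with an adjusted p of 0.0015, while the alternatives together ran from 0.0015 to 1.0.

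Between the sites, Cx3cl1 changed order with level. SI over LI was -0.56 ± 0.38 in centre (adjusted p = 0.57), -0.19 ± 0.38 in border (adjusted p = 0.92) and 0.69 ± 0.37 in row >3 (adjusted p = 0.39), none of them called. The SI replicate 3 libraries were the highest SI libraries of Cx3cl1 in centre and border. Without them SI over LI was -1.07 ± 0.24 in centre (adjusted p = 0.0041), -0.84 ± 0.26 in border (adjusted p = 0.045) and 0.74 ± 0.21 in row >3 (adjusted p = 0.020), each called. Ccl28 in border was also called without them, at -0.85 (adjusted p = 0.0071). Over all alternatives the adjusted p ran from 0.0041 to 0.94 in centre, from 0.045 to 1.0 in border and from 0.020 to 0.78 in row >3.

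Ccl6 (ENSMUSG00000018927, chr11:83587882-83593087, minus strand), the CCR1 ligand, was also higher in SI row >3 than in SI centre. Per length its mean over 18 libraries was the highest of the 8, but in SI centre it stood at 47.0 CPM per kb against 62.4 for Ccl25. Its normalised counts were 660, 1814 and 1690 in SI centre, 4047, 2511 and 1940 in SI border, and 12183, 11914 and 2826 in SI row >3. In LI they were 630, 790 and 2618 in centre, 758, 1067 and 2878 in border, and 1077, 1154 and 2865 in row >3. In SI every row >3 library lay above every centre library, but replicates 1 and 2 reached more than 4 times the level of replicate 3. LI replicate 3 was the highest LI library at each level by more than 2 times. SI row >3 over centre was 2.69 ± 0.79 (6.45-fold, adjusted p = 0.040), and 2.51 ± 0.56 with the replicate block (adjusted p = 0.011). The call was kept in 9 of 16 alternatives (adjusted p 0.0018 to 0.15) and ended when any 1 of the SI centre libraries, SI row >3 replicate 1 or SI row >3 replicate 2 was left out, as it was with library size scaling or the groups compared alone. Without the SI replicate 3 libraries it was 3.29 (adjusted p = 0.044). Same-numbered SI libraries changed 18.4-, 6.56- and 1.67-fold from centre to row >3, and LI libraries 1.71-, 1.46- and 1.09-fold. The difference between these changes was 2.36 ± 1.06 (unadjusted p = 0.046, adjusted p = 0.73, alternatives 0.27 to 1.0). With 1 library left out it ran from 1.42 (without LI centre replicate 3) to 2.98 (without LI row >3 replicate 3). SI over LI was -0.02 ± 0.74 in centre, 0.76 ± 0.75 in border and 2.34 ± 0.77 in row >3 (adjusted p = 0.14, alternatives 0.013 to 0.43), where SI replicate 3 fell below LI replicate 3. With 1 library of the groups compared left out, these values ran from -0.37 to 0.92 in centre, 0.42 to 1.58 in border and 2.05 to 2.96 in row >3.

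**Figure D4:**
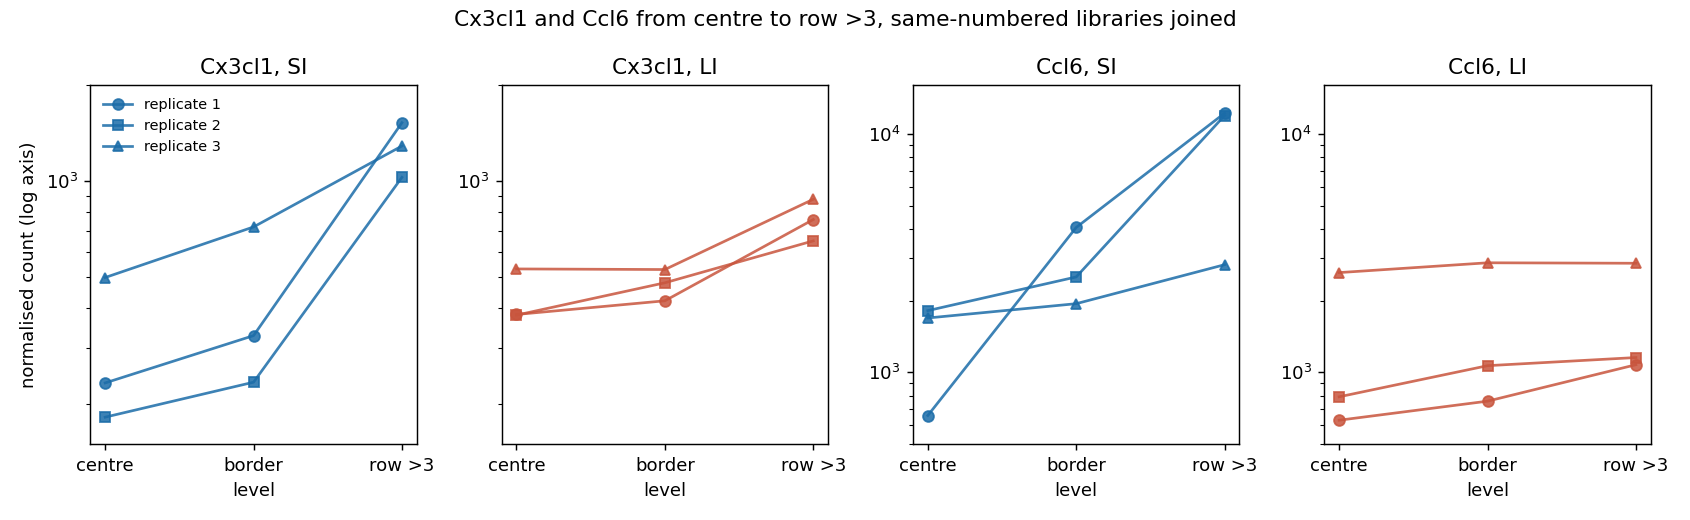
Normalised counts of Cx3cl1 and Ccl6 at centre, border and row >3 on log axes, SI in blue and LI in red, with lines joining libraries of the same replicate number. Each of the 3 SI lines of Cx3cl1 climbs from centre to row >3, by 2.58- to 6.50-fold, and the SI line of Ccl6 replicate 3 climbs least, by 1.67-fold.

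Other cell markers moved in the same comparison, in which 13.2% of all genes passed the test. From SI centre to row >3, 5 of 6 goblet markers rose (Tff3 by 3.99, Fcgbp by 4.14, Zg16 by 5.11, Agr2 by 3.35 and Muc2 by 2.81 on the log2 scale with adjusted p of at most 0.0485) while Clca1 fell by 2.04. Their summed level was 671 to 9993 CPM in SI centre and 30977 to 50622 CPM in SI row >3. In LI it was 6687 to 10627 CPM in centre and 14845 to 23371 CPM in row >3, also without overlap, and none of the 6 passed the test there. Of 7 absorptive markers the summed level was 171 to 324 CPM in SI centre and 720 to 1654 CPM in row >3, with 3 of the 7 higher. Also higher were 4 of 6 epithelial markers. For enteroendocrine markers it was 1 of 5 (Pax6) and for tested M cell and follicle-associated markers 1 of 5 (Ccl9), both near the share of all genes. None of the 12 immune markers passed the test. Itgam, a myeloid integrin, was at 67.6, 57.9 and 7.06 CPM in SI row >3 replicates 1, 2 and 3, the order in which Ccl6 stood, and at 19.4, 15.1 and 8.03 CPM in SI centre, where it did not, and at most 5.16 CPM in LI. Between the sites it was the 1 immune marker of 12 that passed, higher in SI in border (3.56 ± 0.82, adjusted p = 0.048) and row >3 (4.95 ± 0.84, adjusted p = 0.0045). Adgre1, which encodes the macrophage marker F4/80, held 1 count in each of SI border and LI border and none elsewhere, which does not speak for other myeloid cells. The part of these cell markers in the Cx3cl1 and Ccl6 values was not tested.

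The chemokine system around the 8 genes was sparse. Of 30 other chemokine ligands, 14 had 0 counts in all 18 libraries, 16 were tested, and 3 reached a group mean of 1 CPM: Ccl9, Cxcl11 and Ccl27a. Between SI row >3 and centre 2 of the 16 rose and none fell, a share near the 13.2% of all genes that passed there, with a median log2 change of 0.89 over the 16 and 0 over all genes. These were Ccl9, a neighbour and relative of Ccl6, at 8.14, 19.7 and 13.4 CPM in SI centre and 63.4, 74.4 and 52.6 CPM in SI row >3 (2.21 ± 0.42, adjusted p = 0.0025), and Cxcl11, a CXCR3 ligand like Cxcl10, at 0.196, 0.357 and 0.964 CPM and 1.79, 1.72 and 2.95 CPM (2.05 ± 0.64, adjusted p = 0.037). Unlike in Ccl6, replicate 3 of Ccl9 in SI row >3 was close to the others. None of the 16 passed between the sites at any level.

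Receptors for these ligands were near or at 0 in the sorted cells. None of 18 chemokine receptors passed any comparison, 6 had 0 counts throughout, among them Cxcr2, Cxcr3 and Cxcr6, and the highest single value was 0.526 CPM for Ccr10 in SI border replicate 3. Ccr9, the receptor of CCL25, was highest at 0.344 CPM and Cx3cr1 at 0.153 CPM. Of 5 atypical receptors, which bind chemokines without classical signalling, Ackr3 fell from 2.00, 3.80 and 5.42 CPM in SI centre to 0.166, 0.802 and 0 CPM in SI row >3 (-3.30 ± 0.71, adjusted p = 0.0028). In that comparison 13.2% of all genes passed. In LI the means of Ackr3 were 4.20 CPM in centre, 1.87 CPM in border and 0.584 CPM in row >3, and row >3 over centre was -2.75 ± 0.65 (adjusted p = 0.20, or 0.010 with the replicate block). Of 5 proteases that cut chemokines, 1 passed between the sites, where 1.99%, 1.75% and 4.09% of all genes passed in centre, border and row >3. This was Mmp7, a matrix metalloproteinase of Paneth cells, higher in SI at each level (54.0 CPM in SI centre against 0.0919 CPM in LI centre, adjusted p = 0.0054). Adam10 and Adam17 passed in no comparison.

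Genes of the pathways that are known to induce Cxcl1 and Cxcl10 were looked at beside them. Of 10 NF-kB response genes, 3 were lower in SI than LI in centre and none higher, where 1.99% of all genes passed: Nfkbia, the feedback inhibitor of NF-kB, by -1.31 ± 0.23 (adjusted p = 0.0029), Tnfaip3 by -1.30 ± 0.29 (adjusted p = 0.020) and Nfkb2 by -1.12 ± 0.29 (adjusted p = 0.046). Nfkbia was also lower in border (-1.0, adjusted p = 0.023) and row >3 (-1.05, adjusted p = 0.0074), with LI libraries at 61.4 to 119 CPM and SI libraries at 24.5 to 47.2 CPM. The median of the 10 was -0.67 in centre, -0.33 in border and -0.14 in row >3, against 0 for all genes at each level. From SI centre to row >3, 3 of the 10 rose (Tnfaip3, Nfkb2 and Birc3, by 1.03, 1.41 and 1.03) with none falling, the median of the 10 was -0.12, and 13.2% of all genes passed.

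The interferon response genes that passed between the sites were higher in SI, where Cxcl10 was lower. Of 12, 1 was higher in SI in centre (1.99% of all genes passed), 0 passed in border (1.75%) and 2 were higher in row >3 (4.09%), with none lower at any level and medians of 0.27, 0.65 and 0.88. Irf9 was higher by 0.87 ± 0.20 in centre (adjusted p = 0.026) and by 0.80 in row >3 (adjusted p = 0.026), and Stat2 by 1.24 ± 0.26 in row >3 (adjusted p = 0.0064). From SI centre to row >3, 5 of the 12 rose, where 13.2% of all genes passed: Irf7, Stat2, Ifit1, Oas1a and Mx1, the last from 0.341 ± 0.183 to 3.34 ± 2.53 CPM (SD, n = 3), and the median of the 12 was 1.38 against 0 for all genes. Cxcl10 itself stayed at 11 counts over SI row >3.

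**Figure D5:**
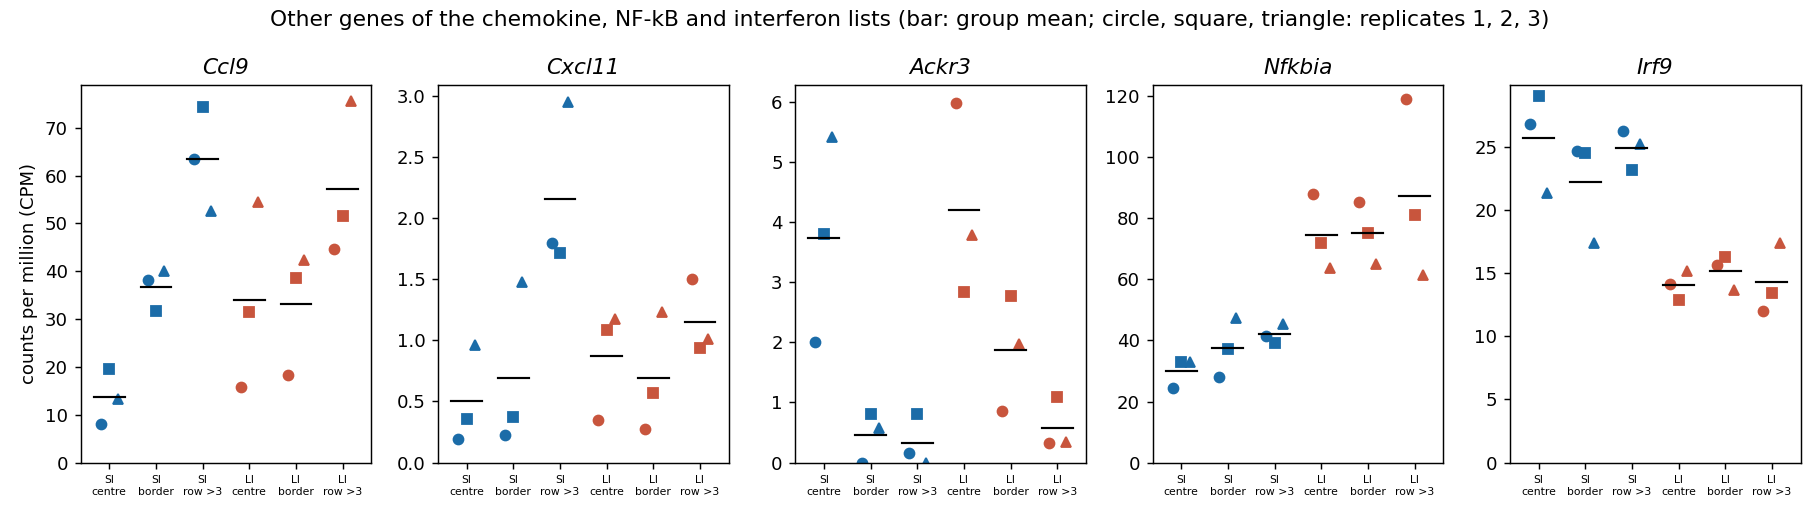
CPM of Ccl9, Cxcl11, Ackr3, Nfkbia and Irf9 in each library, SI in blue and LI in red, with circles, squares and triangles for replicates 1, 2 and 3 and bars for group means, on linear axes from 0. Nfkbia libraries of LI all lie above those of SI, Irf9 runs the other way without overlap within a level, and Ackr3 is lower in SI row >3 than in SI centre.

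For each gene with a mean normalised count of at least 10, the genes most alike in log2 CPM over the 18 libraries were taken from 12976 or 12977 others. These correlations are descriptions, since the libraries share sites, levels and replicate numbers, and the order of the closest genes moved without the SI replicate 3 libraries (Spry1, first for Cxcl10, was then at rank 170). Ccl25 was most like Fam20a (Pearson r = 0.985), Gata4 (0.984) and Abcc2 (0.982). Cx3cl1 was most like Ick (0.982, Spearman's rho 0.996), Tmbim6 (0.973) and Mon2 (0.966). Ccl6 was most like Rnf6 (0.902), Tulp4 (0.892) and Gdpd1 (0.892), Cxcl10 most like Spry1 (0.918), Ces1e (0.904) and Jun (0.898), and Cxcl1 most like Idh2 (0.875), Hmox2 (0.874) and Ube2h (0.870). Ccl28 was closest to Metap1 (0.883), Uba3 (0.860) and Fam168a (0.853), and Cxcl16 to Snrpn (0.825), Pnrc1 (0.804) and Tceal1 (0.800). Among the 8 themselves, with both sites pooled, Cxcl1 and Cxcl10 correlated at 0.752, each against Ccl25 (-0.80 and -0.89), while Cx3cl1 and Ccl6 were at 0.534. Within LI the order of libraries was mixed for Cxcl1 and Cxcl10. In border replicate 1 Cxcl1 was lowest of its group (0.917 normalised counts) and Cxcl10 highest (33.9), while in centre both were highest in replicate 1.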

How the data were processed

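RNA of sorted EPCAM+ cells (at least 270 pg) was made into SMART-Seq Stranded libraries and read as paired 100-nt reads. The authors aligned reads with STAR to mm10 and deposited raw counts per gene and a table of signal values, which are the same counts divided by DESeq2 size factors (normalised counts). Which annotation was counted, and with what strand setting, is not stated in the paper or the labels. Groups came from the labels, and no pair of replicates was alike within counting noise (lowest chi-square per degree of freedom 14.5).

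Counts were tested with edgeR 4.0.16 (TMM factors, robust quasi-likelihood fit over 6 groups, genes with a mean count above 0, Benjamini-Hochberg adjustment) in 9 comparisons. Alternatives were DESeq2 1.42.0, other filters and scalings, the older quasi-likelihood fit, the groups compared alone, libraries left out, and the replicate number as a block. After group means were removed, same-numbered libraries correlated at 0.240 to 0.678 between SI levels and 0.290 to 0.568 between LI levels. The main fit held no block, and the block was run as an alternative in all 9 comparisons. Between the sites the correlations were 0.020 to 0.176 in centre, 0.109 to 0.159 in border and -0.05 to 0.236 in row >3. Same-numbered libraries that differed in both site and level were at -0.093 to 0.317, so pairing between the sites is not shown. The script was tested on simulated data with 25622 genes, in SI over LI in centre. It recovered 13 of 50 genes set at a log2 change of 1. At 2, 3 and -2 it recovered 40, 46 and 42 of 50. It also called 19 genes that had not been changed. A log2 change of 1 was mostly missed, so an uncalled difference of that size is not shown to be absent. CPM used TMM-scaled totals, and lengths were unions of exons in the GENCODE M21 basic set, which held all 8 identifiers. Where a group had 0 counts, folds were set against 3 counts over the group, and where it had 1 to 3, an exact binomial 95% interval was used, both covering counting error only.

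The 8 genes and all lists were chosen with earlier results of these data known. All 8 are named. Of each list up to 4 called genes with the smallest adjusted p are named, or the highest where none was called, and for likeness the 3 genes with the highest correlation among those with a mean of at least 1 CPM. Genes beyond this rule were chosen after their values were seen. Promoter windows came from RefSeq (GRCm38.p6). A gene among the position genes examined is not reported here.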

Additional observations from a re-analysis of the deposited data

Results flagged for a closer look

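The change of Cx3cl1 from centre to row >3 differed between SI and LI in the paired test of the difference itself, at 1.39 ± 0.30 (log2, edgeR with the replicate block within site, adjusted p = 0.021). The SI changes, 2.58- to 6.50-fold, all lay above the LI changes, 1.65- to 1.98-fold, which are the same values that the test used. The unpaired test gave 1.25 ± 0.53 (adjusted p = 0.63). No other of the 8 genes differed in this way. Leaving out each of the 12 libraries in turn gave 0.99 to 1.79 in the unpaired fit, with 0 of 12 called. The check for a single value far from its group needs at least 4 samples and was not run on these groups of 3.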

How the results depend on the processing

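For 22 of the differences of single genes described, 364 alternative values were tallied: 321 kept direction and call, 27 lost the call, 15 gained it and 1 changed sign. That 1 was Cx3cl1, SI over LI in border, which without 1 SI border library at a time ran from -0.87 to 0.11, the last without replicate 2. Ccl6, SI over LI in centre, was outside this tally and also changed sign, from -0.37 to 0.92 with 1 library left out. The counts of the 8 genes called moved as follows, and unless stated the cause was not tested. SI over LI in centre (3): 4 without the SI replicate 3 libraries, 2 with the older quasi-likelihood fit and without the LI replicate 3 libraries, and 1 to 3 with 1 library left out. SI over LI in border (2): 3 with the replicate block, 4 with DESeq2 and without the SI replicate 3 libraries, 1 with the older quasi-likelihood fit, with the groups compared alone and without the LI replicate 3 libraries (the last chosen after seeing the data), and 1 to 2 with 1 library left out. SI over LI in row >3 (2): 3 with DESeq2, 4 without the SI replicate 3 libraries, 1 without the LI replicate 3 libraries, and 1 to 2 with 1 library left out. Row >3 over centre in SI (2): 1 with library size only, 1 with the groups compared alone, and 1 to 2 with 1 library left out. Row >3 over centre in LI, and its difference from SI (0 each): 1 each with the replicate block and without the SI replicate 3 libraries. The replicate block changed 3 calls of the 8 genes, Ccl28 in SI over LI in border and Cx3cl1 in LI and in the difference, and no other. Over all genes, SI over LI gave 1229 calls in centre, 1212 in border and 1682 in row >3 with DESeq2, against 532, 468 and 1092. Counting precision was lowest for Cxcl1, Cxcl10 and Ccl20, which held at most 91, 57 and 33 counts in any library.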
